A study of Mus musculus with 45 samples.

Results

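Mouse embryonic stem cells (ESCs) that lack both Smad2 and Smad3 (Smad2/3 DKO) were compared with the day 2 embryoid bodies (d2 EBs) made from the same lines, to follow how cells leave the ESC state without these regulators. The samples were chosen by their titles, and they make up 7 of the 45 arrays of the series, 3 of Smad2/3 DKO ESCs and 4 of Smad2/3 DKO d2 EBs. The 4 arrays of WT ESCs and the 4 of WT d2 EBs served as the reference course. All lines were of 129/Sv//Ev origin. The ESCs grew without feeders in serum with leukaemia inhibitory factor (LIF), and the EBs formed in hanging drops of that medium without LIF over 2 days. Every Smad2/3 DKO clone descended from 1 Smad2 KO line (KT15, Smad2tm1Rob) in which paired CRISPR nickases removed the region around Smad3 exon 1, so the clones are separate Smad3 deletions on a shared parental background. The ESC arrays were replicates 2, 3 and 4 (clones KT15.2G9, KT15.1F6 and KT15.2D5), and the d2 arrays were replicates 1, 2, 3 and 4 (clones KT15.1F6, KT15.2G9, KT15.1F11 and KT15.2D5). Values below follow these orders. ESC replicate 1 was not analysed here, and clone KT15.1F11 has a d2 array alone. About 5000 EBs were collected for d2 Smad2/3 DKO replicates 1, 3 and 4, about 2500 for replicate 2, and about 1250 for each WT d2 sample. Removal of LIF, aggregation into drops and time in culture changed together, so their parts in any difference between ESCs and d2 EBs cannot be told apart.

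ESCs in serum with LIF sit close to the naive state of the preimplantation epiblast. LIF acts in part through the transcription factor Stat3, which feeds the naive factors Klf4 and Tfcp2l1. Once LIF is gone, Fgf and Erk signalling moves the cells towards the primed state of the early postimplantation epiblast, marked by Fgf5, Pou3f1 and Otx2. Nodal and Activin signal through Smad2 and Smad3 and their partner Foxh1, and switch on their own inhibitors Lefty1 and Lefty2 and the coreceptor Tdgf1. Bmp ligands use another set of receptor-regulated Smads and drive Id and Msx genes, and canonical Wnt acts through beta-catenin and the Tcf/Lef factors on Axin2, Sp5 and the streak genes.

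RNA was hybridized to Illumina MouseWG-6 v2.0 beadchips. Levels are given as log2 normalized signal, and a probe was called detected on an array at a detection p under 0.01. The lowest detected value on an array lay between 6.82 and 7.31. Changes are differences between group means on that log2 scale with the limma standard error (SE), and a change was called at a Benjamini-Hochberg adjusted p under 0.05 over 15222 tested probes. A gene is represented by its brightest tested probe, which gave 8860 genes. A probe was tested if detected on at least 3 of the 15 arrays, in whichever group. A gene detected in 1 group alone can therefore hardly be called in more than 1 direction, and counts over gene lists depend in part on this filter. Where a probe was undetected on every array of 1 group, the ratio is given as a lower bound ("at least"), taken against the mean of, on each of those arrays, the higher of its lowest detected value and the value of the probe itself. The 15 arrays had median raw signals of 113.8 to 243.1 and 12317 to 14138 detected probes. In bulk RNA, fewer cells of a type and less RNA per cell cannot be told apart.

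The Smad3 transcript checked the labels. The position of the Smad3 probes relative to the deleted part is not given in the sources used here. At the brighter probe the 3 Smad2/3 DKO ESC arrays read 5.31, 5.61 and 4.82, none of them detected. The d2 Smad2/3 DKO arrays read 4.96, 5.46, 5.45 and 9.42, and 1 of the 4 was detected. That array is replicate 4, labelled clone KT15.2D5, which lay above all 8 WT values (7.74 to 8.83 in ESCs, 8.46 to 9.40 in d2 EBs) and was also the 1 Smad2/3 DKO array detected at the second probe (7.94). Smad2, whose probe says nothing on the Smad2 deletion, was detected on all 15 arrays (8.38 to 9.68). Across genes, the profile of this library relative to the mean of the series correlated best with the mean of the d3 Smad2 KO arrays (r = 0.62), then with d3 Smad2/3 DKO (0.484), d3 WT (0.216) and the other 3 d2 Smad2/3 DKO arrays (0.165). The other d2 arrays were not alike in this respect. Replicates 1 and 3 correlated best with the other d2 Smad2/3 DKO arrays (0.391 and 0.366), and replicate 2 with d2 Smad2 KO (0.428), and with the other d2 Smad2/3 DKO arrays at 0.0909. These correlations are across genes, share the series mean, and describe the libraries only. Replicate 4 is called here the library labelled replicate 4, and results that it changes are given with it and without it. Of 1844 genes called with that library, all 1844 kept their direction without it, 1556 were still called, and 181 more were called only without it. Among the genes named below, leaving it out ended the called changes of Pou5f1, Utf1, Krt8 and Krt18 and the called differences from WT of Cdx2 and Peg3, and added the changes of Lefty1, Lefty2 and Id2 and the differences of Lefty1, Id4 and Fgf8. The other calls of named genes held.

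The Smad2/3 DKO cells changed broadly over the 2 days, and mostly along the WT course. By any tested probe, 1084 genes were higher and 995 lower in d2 EBs than in ESCs, against 1008 and 918 without the library labelled replicate 4. By the brightest probe, 11.2% of the 8860 genes were higher and 9.59% lower (10.6% and 9.01%, or 19.6% in either direction, without that library), against 13% and 13.2% in WT. Leaving out ESC replicate 4 lowered the counts by any probe most, to 683 and 651. Without the library labelled replicate 4 the ESC and the d2 arrays did not overlap for 37.3% of the genes. The median size of the log2 change over all genes was 0.324 in Smad2/3 DKO and 0.338 in WT, and 1244 genes changed by 1 log2 unit or more in Smad2/3 DKO. Of the Smad2/3 DKO calls, 654 of the higher and 642 of the lower genes were called in the same direction in WT (65.8% and 75.5% of the Smad2/3 DKO calls, 56.9% and 54.9% of the WT calls), and 5 were called in the opposite direction. Across genes, which are not independent replicates, the changes of both genotypes correlated with r = 0.793.

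**Figure D1:**
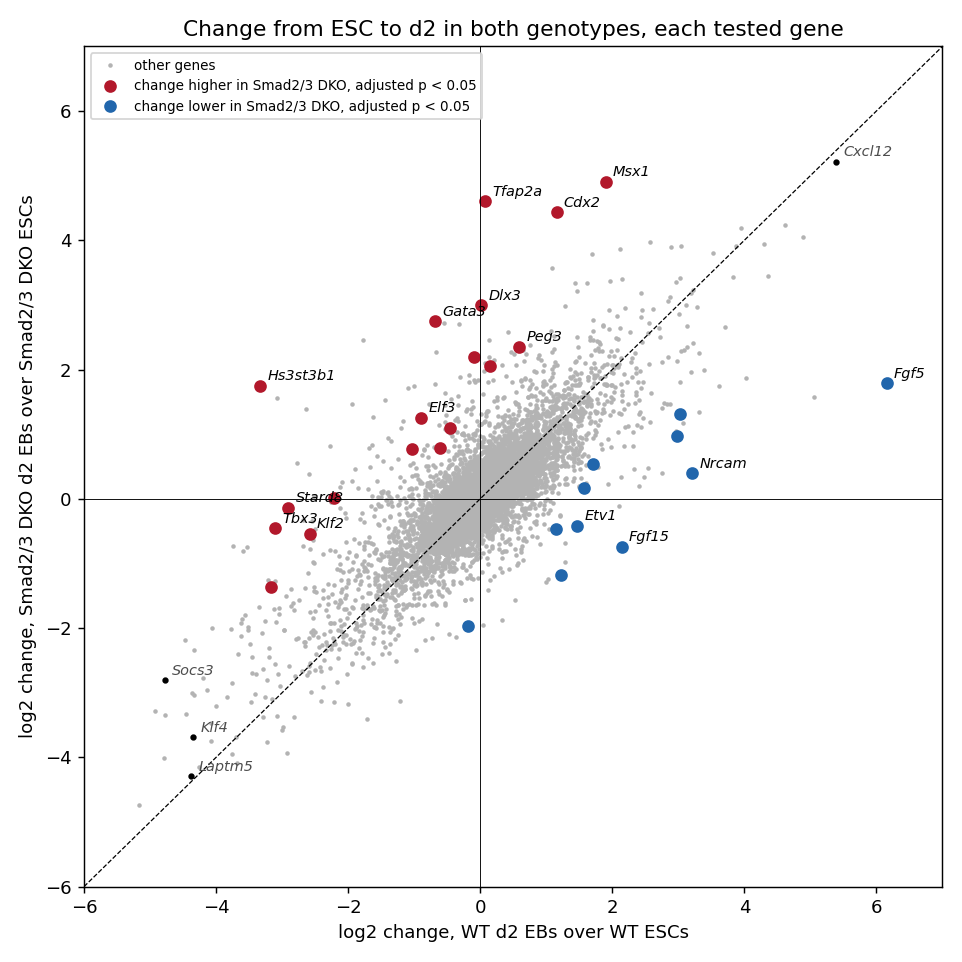
Each point is 1 of 8860 tested genes by its log2 change from ESC to d2 EB in WT (x axis) and in Smad2/3 DKO (y axis), with the dashed line marking equal changes. Most genes lie along the line (r = 0.793), and the 18 red and 11 blue genes are those whose change was called higher or lower in Smad2/3 DKO than in WT.

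Outside the gene lists, the largest rise by the brightest probe was in Cxcl12, the ligand of the chemokine receptor Cxcr4. Cxcl12 read 6.01, 7.87 and 7.14 in the ESCs and 12.54, 12.77, 12.10 and 11.48 in the d2 EBs (log2 change 5.21, SE 0.39, adjusted p = 1.05e-06), and in WT it rose by 5.39. Irx3, a homeobox factor of the neural plate, and Kif1a, a kinesin motor of axonal transport, rose by 3.97 (SE 0.54, adjusted p = 0.000138) and 3.90 (SE 0.57, adjusted p = 0.00024), and Ccno, a cyclin-like protein of multiciliated cells, by 3.86 (adjusted p = 0.000114). The other 6 of the 10 largest rises were not detected in any Smad2/3 DKO ESC array and were detected on all 4 d2 arrays. Among them Pdzrn3, a ubiquitin ligase, was at least 8.36-fold higher, Zfp36l3, an RNA-binding protein, at least 6.29-fold, and Prtg (protogenin), a cell-surface protein of the early neural tube and mesoderm, at least 6.16-fold. Vrtn (vertnin) was at least 5.72-fold higher, Has2, a hyaluronan synthase, at least 4.67-fold, and Ptn (pleiotrophin), a growth factor, at least 4.13-fold (adjusted p from 9.18e-08 for Has2 to 0.000221 for Zfp36l3). The sizes and their order depend on the probe. Other probes gave smaller rises, of 2.54 and 2.62 for Cxcl12, 2.54 for Kif1a and 3.04 for Zfp36l3 (adjusted p at most 0.000751).

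The largest falls outside the lists, again by the brightest probe, were in genes bright in ESCs. Emp1, an epithelial membrane protein, read 11.31, 11.11 and 11.27 in the ESCs and 5.48, 5.67, 6.20 and 8.62 in the d2 EBs (log2 change -4.74, SE 0.64, adjusted p = 0.000137). Its d2 value was highest in the library labelled replicate 4, the 1 d2 array where it was detected, and without that library it was at least 19.3-fold lower (adjusted p = 4.64e-06). Laptm5, a lysosomal membrane protein, fell on every array, from 13.65, 13.28 and 13.62 to 9.21, 9.20, 9.51 and 9 (log2 change -4.29, SE 0.30, adjusted p = 5.61e-07). Napsa, an aspartic protease, was at least 7.93-fold lower, Pramel14 at least 6.49-fold and Ak7, an adenylate kinase of cilia, at least 5.25-fold, all 3 undetected in d2 EBs. Catsperz, a subunit of the sperm calcium channel (log2 change -4.09), Ubap1l (-3.94), Serpinb6c, a serine protease inhibitor (-3.75), Septin1, a cytoskeletal GTPase (-3.69), and Nupr1, a stress-induced chromatin protein (-3.58), also fell (adjusted p at most 0.000169). Other probes gave changes of -3.02 for Catsperz, and -4.15 and -3.83 for Napsa. WT cells moved in the same direction in all 20 of these largest rises and falls.

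The naive programme fell in Smad2/3 DKO d2 EBs. Of the 18 tested naive genes 13 were lower and none higher, with and without the library labelled replicate 4, where 9.59% of all genes were lower. The list's median change was -2.03 (all genes 0.03), and in WT 17 of the 18 were lower with a median of -3.10. Klf4, a direct Stat3 target, read 10.21, 10.54 and 11 in the ESCs and 6.67, 6.59, 7.04 and 7.28 in the d2 EBs, where 2 of 4 arrays still detected it, and was 12.9-fold lower (log2 change -3.69, SE 0.24, adjusted p = 2.84e-07). Tcl1, a coactivator of Akt, went from 10.14, 11.37 and 10.30 to 6.27, 6.04, 7.29 and 6.79 (log2 change -4.01, SE 0.37, adjusted p = 5.33e-06). In both genes every d2 array lay below every ESC array.

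Fgf4, the growth factor through which ESCs drive their own Erk signalling, read 9.99, 9.99 and 10.05 in the ESCs and 6.48, 6.38, 6.81 and 6.76 in the d2 EBs, where no array detected it. It was at least 8.34-fold lower (adjusted p = 4.15e-06). Jam2, a junctional adhesion protein, went from 9.27, 9.98 and 10.21 to 6.28, 6.13, 6.64 and 7.39 (log2 change -3.21, SE 0.30, adjusted p = 6.35e-06). The orphan nuclear receptor Esrrb fell from 13.71, 14.34 and 14.20 to 11.19, 11.36, 12.31 and 12.11 (log2 change -2.34, SE 0.43, adjusted p = 0.00136) and stayed bright on all 4 d2 arrays, whereas the WT d2 values ran from 8.34 to 10.50. A second Esrrb probe gave -0.65 (adjusted p = 0.0331), and it was not called without the library labelled replicate 4 (adjusted p = 0.0563). Zfp42 (Rex1), a zinc finger protein used as the standard naive marker, fell from 13.44, 13.74 and 13.72 to 11.06, 10.48, 12.18 and 12.54 (log2 change -2.07, SE 0.40, adjusted p = 0.00203), with replicate 3 and the library labelled replicate 4 the highest. The remaining falls were of -1.27 to -2.24 in Prdm14, Fbxo15, Pecam1, Tfcp2l1, Klf5, Nanog and Nr5a2. Nanog, the homeodomain factor at the core of the naive network, read 11.85, 12.72 and 12.16 in the ESCs and 10.13, 10.24, 10.76 and 11.68 in the d2 EBs (log2 change -1.54, SE 0.35, adjusted p = 0.00558), while a second Nanog probe gave -0.95 (adjusted p = 0.186). Nr5a2, an orphan nuclear receptor, fell by 1.27 (adjusted p = 0.0214), a call lost without ESC replicate 2 (adjusted p = 0.0665), ESC replicate 3 (0.0733) or d2 replicate 1 (0.0618), and its second probe gave -0.73 (adjusted p = 0.0514).

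**Figure D2:**
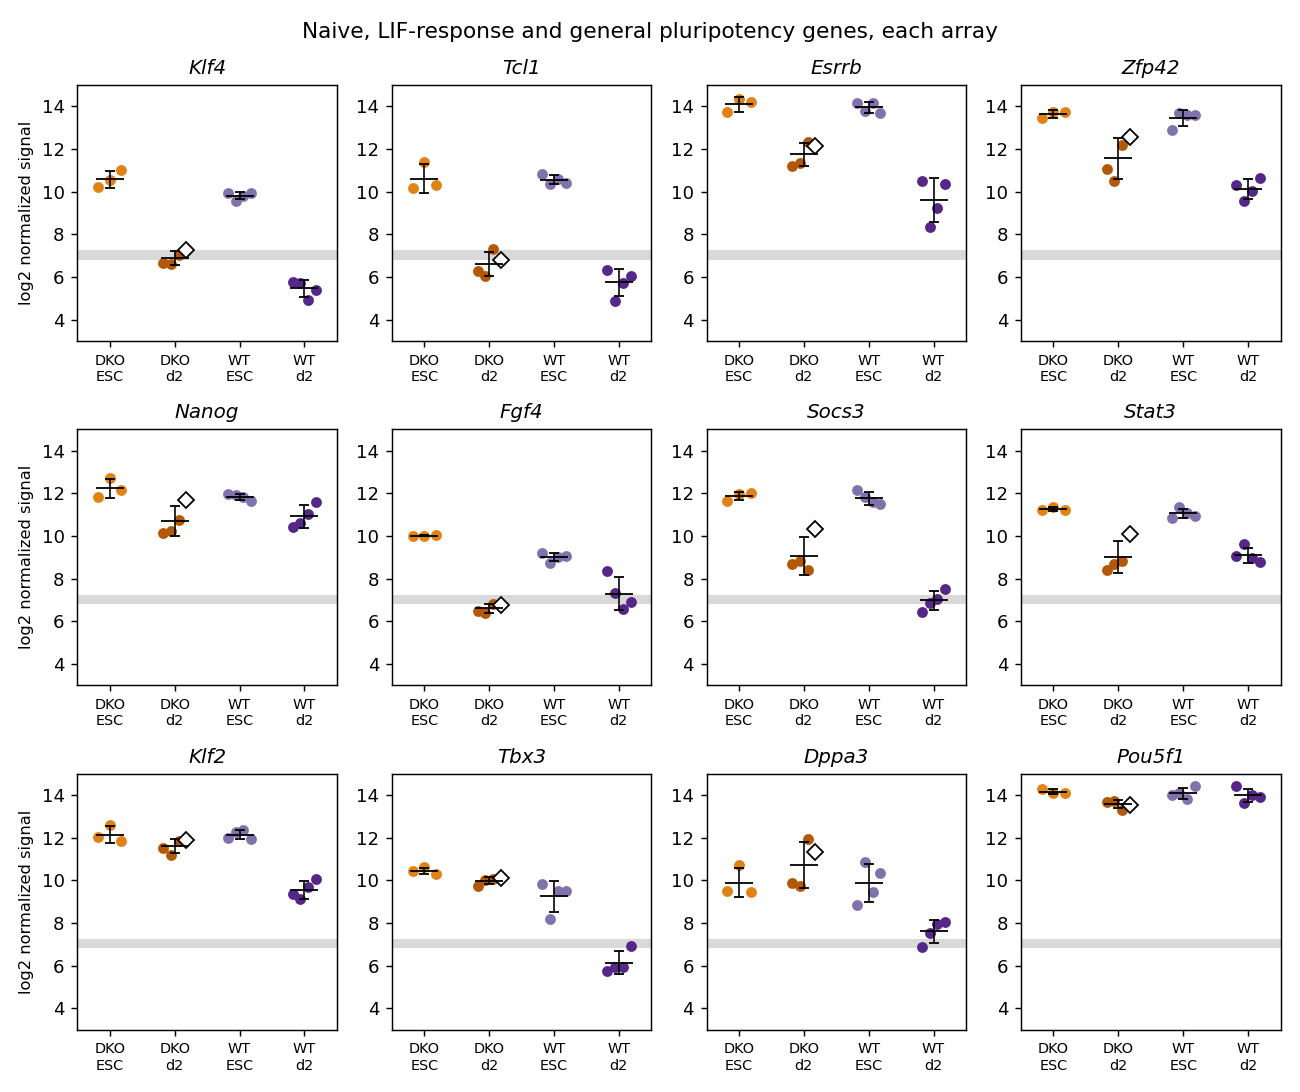
Log2 normalized signal of 12 naive, LIF-response and general pluripotency genes in Smad2/3 DKO and WT ESCs and d2 EBs. Points are arrays, the open diamond is the library labelled replicate 4, bars are mean ± SD, and the grey band spans the lowest detected values of the 15 arrays (6.82 to 7.31). Klf4, Tcl1 and Fgf4 reach the band in Smad2/3 DKO d2 EBs, whereas Klf2, Tbx3 and Dppa3 stay at 9.73 or above on every Smad2/3 DKO d2 array.

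A group of 5 naive genes was not called in Smad2/3 DKO. Klf2, a Kruppel-like factor that follows Erk inhibition, read 12, 12.59 and 11.82 in the ESCs and 11.52, 11.16, 11.82 and 11.89 in the d2 EBs (log2 change -0.54, SE 0.25, adjusted p = 0.155). WT Klf2 fell by 2.58 (adjusted p = 2.57e-06), and the change differed between the genotypes (2.04, SE 0.35, adjusted p = 0.0248, and 1.94, adjusted p = 0.044, without the library labelled replicate 4). That difference was not called without ESC replicate 2 (0.0802) or 4 (0.0858), or without WT d2 replicate 1 (0.054) or 2 (0.0512). Tbx3, a T-box factor downstream of LIF, read 10.42, 10.60 and 10.31 in the ESCs and 9.73, 10, 10.08 and 10.12 in the d2 EBs (log2 change -0.46, SE 0.34, adjusted p = 0.379). In WT it went from 4 detected arrays to none, and the difference between the genotypes was 2.65, SE 0.46, adjusted p = 0.0253. It was not called without ESC replicate 2 or 4, d2 replicate 2 or 3, WT ESC replicate 3 or 4, or WT d2 replicate 1, 2 or 3 (adjusted p = 0.0509 to 0.0883). Of the 3 other Tbx3 probes 1 was called (2.62, adjusted p = 0.0467), and the others were not (2.34, adjusted p = 0.291, and 0.58, adjusted p = 0.911). The remaining 3 were Dppa3 (Stella), a maternal factor that guards against demethylation (log2 change 0.82, SE 0.56, adjusted p = 0.343), the homeobox gene Gbx2 (log2 change -1, SE 0.56, adjusted p = 0.236) and Dppa5a, an RNA-binding protein of ESCs (log2 change -0.06, SE 0.12, adjusted p = 0.801). Dppa3 ranged from 9.73 to 11.91 among the d2 arrays, with replicate 3 and the library labelled replicate 4 the highest.

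In the LIF and Stat3 response, of 10 tested genes 5 were lower and none higher (6 without the library labelled replicate 4), with a median change of -1.21, and 7 were lower in WT. The shares of all genes that were lower were 9.59% in Smad2/3 DKO and 13.2% in WT. Socs3, the feedback inhibitor of Jak and Stat signalling, read 11.64, 11.94 and 12 in the ESCs and 8.69, 8.80, 8.40 and 10.34 in the d2 EBs (log2 change -2.80, SE 0.37, adjusted p = 0.000114, and -3.23, adjusted p = 2.25e-06, without the library labelled replicate 4). Stat3 itself, which is its own target, read 11.20, 11.35 and 11.20 and 8.42, 8.70, 8.81 and 10.09 (log2 change -2.25, SE 0.31, adjusted p = 0.000165, and -2.61, adjusted p = 3.34e-06, without that library). In both genes the library labelled replicate 4 lay more than 1 log2 unit above the other d2 arrays, and all 4 still lay below the ESC arrays. The kinase Pim3 fell by 1.51 (adjusted p = 0.0012), and Lifr, the LIF receptor, was undetected in d2 EBs and at least 1.68-fold lower (adjusted p = 0.000234).

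Genes shared by naive and primed pluripotency moved less. Of 11 tested, 5 were lower, but 3 without the library labelled replicate 4, against 9.59% and 9.01% of all genes. Sox2, the partner of Oct4, read 12.36, 12.28 and 12.19 in the ESCs and 11.40, 11.42, 11.20 and 10.74 in the d2 EBs (log2 change -1.09, SE 0.22, adjusted p = 0.00291), although a second probe was not called (-1.30, adjusted p = 0.116), nor was the first with all 45 arrays in 1 fit (0.0528). Mybl2, a cell cycle transcription factor, fell by 1.18 (adjusted p = 0.000109) with d2 values between 11.80 and 12.00, and was not called with all 45 arrays (0.0737). Pou5f1, which encodes Oct4, was among the brightest genes in both groups, with 14.28, 14.07 and 14.10 and 13.67, 13.71, 13.30 and 13.52 (log2 change -0.60, SE 0.19, adjusted p = 0.0406). That small fall was lost without the library labelled replicate 4 (adjusted p = 0.0714), without ESC replicate 2 (0.132), 3 (0.0776) or 4 (0.0927), d2 replicate 1 (0.0557) or 3 (0.102), or WT d2 replicate 3 (0.0538) or 4 (0.052), and with the clone as a block (-0.52, adjusted p = 0.145). Utf1, a chromatin-bound factor of pluripotent cells, fell by 0.90 (adjusted p = 0.0208), and its call was lost without the library labelled replicate 4 (0.0553) and without ESC replicate 2 (0.0751) or 4 (0.109).

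The primed programme rose in part. Of 13 tested genes 7 were higher and 1 lower, with and without the library labelled replicate 4, against 10 higher in WT, where 11.2% and 13% of all genes were higher. The list's median change was 0.81 in Smad2/3 DKO and 2.14 in WT. Of the listed genes 8 were detected on some Smad2/3 DKO ESC array and 11 on some d2 array, against 9 and 12 in WT. The counts therefore depend in part on the probe filter. Sall2, a zinc finger factor of the neural plate, went from no detection in the ESCs (7, 6.61 and 5.91) to 10.55, 10.49, 9.83 and 8.89 in the d2 EBs and was at least 6.75-fold higher (adjusted p = 2.89e-05). Pou3f1 (Oct6), a POU factor of the primed epiblast, read 9.66, 8.38 and 8.97 in the ESCs and 11.41, 10.77, 10.80 and 10.31 in the d2 EBs (log2 change 1.81, SE 0.45, adjusted p = 0.0105). Here too the d2 and ESC arrays did not overlap, but the call was lost without ESC replicate 3 (adjusted p = 0.0603). Sox4, a SoxC factor, rose by 1.49 (adjusted p = 0.00845) and the kinase Pim2 by 1.75 (adjusted p = 0.0144), both lost without ESC replicate 4 (0.0594 and 0.0677). Dnmt3b, the de novo DNA methyltransferase of the postimplantation epiblast, rose from 13.46, 13.42 and 13.44 to 14.14, 14.15, 14.21 and 14.01 (log2 change 0.68, SE 0.18, adjusted p = 0.0154), with a call lost without ESC replicate 3 (0.0504) or 4 (0.0536) or with median scaling (0.51, adjusted p = 0.217). A second Dnmt3b probe gave 1.73 (adjusted p = 0.00161). Lef1, the Wnt effector, rose from 3 undetected arrays to 2 of 4 detected (adjusted p = 0.000282). Otx2, the head organizer homeobox gene, was not called (log2 change 0.81, SE 0.45, adjusted p = 0.237), nor was Zic2 (log2 change 0.33, SE 0.47, adjusted p = 0.676). Tcf15, a bHLH factor that primes ESCs for epiblast fate, was the 1 gene of the list that fell, from 11.58, 10.91 and 12.39 to 10.14, 8.86, 9.18 and 9.63 (log2 change -2.17, SE 0.53, adjusted p = 0.00975), and without ESC replicate 4 it was not called (0.0634).

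Fgf5, the growth factor that defines the primed epiblast, had the lowest p of all differences between the Smad2/3 DKO and the WT change. Its d2 values were 6.43, 6.56, 7.05 and 6.96, and 2 of the 4 arrays detected it. The ESC values were 5.15, 5.16 and 4.58, all undetected. The change was called (log2 change 1.79, SE 0.28, adjusted p = 0.000478), although the mean level in d2 EBs stayed near the detection floor, so that no fold is given. In WT d2 EBs Fgf5 read 10.67 to 11.42 on 4 detected arrays, at least 18-fold above the WT ESCs, and the difference between the genotypes was -4.37, SE 0.39, adjusted p = 0.000136. It was -4.44 (adjusted p = 0.000425) without the library labelled replicate 4. With all 45 arrays in 1 fit neither the Smad2/3 DKO change (adjusted p = 0.127) nor the difference (0.139) was called. Fgf15, a secreted Fgf of the early neural plate, and Nrcam, a neuronal adhesion molecule, were detected on all 4 WT d2 arrays (8.08 to 8.45 and 8.14 to 9.33) and on none of the 7 Smad2/3 DKO arrays (at most 6.84 and 6.47). Their differences were -2.88, SE 0.45, adjusted p = 0.0173 and -2.81, SE 0.41, adjusted p = 0.01. Both genes passed the probe filter through WT arrays alone, so these differences could hardly come out the other way. They rest in part on values below detection in Smad2/3 DKO.

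**Figure D3:**
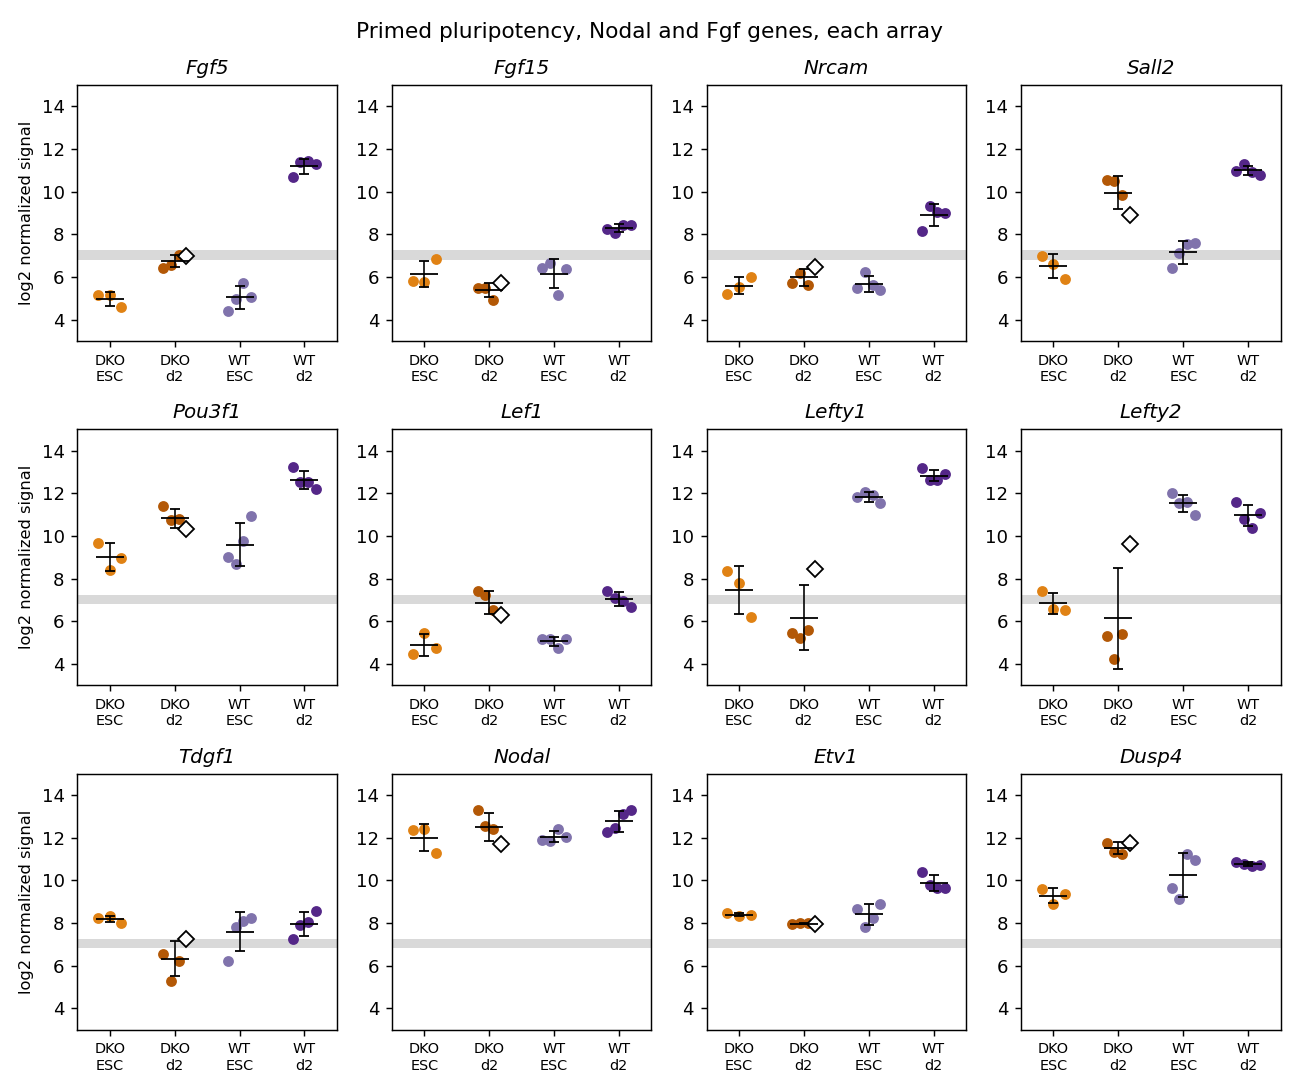
Log2 normalized signal of 12 primed pluripotency, Nodal and Fgf genes, drawn as in the plot of naive genes. Sall2, Pou3f1, Lef1 and Dusp4 rise in Smad2/3 DKO d2 EBs, Fgf5, Fgf15 and Nrcam stay at 7.05 or below, and Lefty1 and Lefty2 are high in the library labelled replicate 4 (8.44 and 9.60) and at most 5.59 on the other 3 d2 arrays.

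Of 11 tested Nodal pathway genes 2 were higher and 2 lower, and without the library labelled replicate 4 there were 2 higher and 4 lower. Of all genes 11.2% were higher and 9.59% lower, or 10.6% and 9.01% without that library. The median change was -0.49, against 0.34 in WT. Nodal, the ligand, stayed bright and was not called, with 12.34, 12.39 and 11.26 in the ESCs and 13.31, 12.55, 12.40 and 11.69 in the d2 EBs (log2 change 0.49, SE 0.36, adjusted p = 0.383). Tdgf1 (Cripto), the coreceptor, went from 8.25, 8.31 and 8.02, detected on all 3 ESC arrays, to 6.57, 5.27, 6.20 and 7.24, where only the library labelled replicate 4 detected it (log2 change -1.87, SE 0.48, adjusted p = 0.0126). Without that library Tdgf1 was at least 2.35-fold lower (adjusted p = 0.00552).

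Lefty1, an inhibitor that Nodal itself induces, read 8.37, 7.80 and 6.19 in the ESCs and 5.43, 5.22, 5.59 and 8.44 in the d2 EBs. With all arrays it was not called (log2 change -1.28, SE 0.63, adjusted p = 0.173), and without the library labelled replicate 4 it was at least 1.41-fold lower (log2 change -2.04, adjusted p = 0.00263). The difference from WT behaved likewise, -2.28 (adjusted p = 0.512) with the library and -3.04 (adjusted p = 0.0329) without it. Lefty2 read 7.42, 6.58 and 6.54 and 5.32, 4.22, 5.40 and 9.60, and its change was -0.71 (adjusted p = 0.614) with the library and -1.87 (adjusted p = 0.00313) without it. Since 1 of 3 ESC arrays and none of the other 3 d2 arrays detected Lefty2, that value lies mostly below the detection floor and no fold is given. WT d2 EBs read 12.61 to 13.20 for Lefty1 and 10.37 to 11.58 for Lefty2. Among the other members, the Activin receptor Acvr2b rose by 0.89 (adjusted p = 0.00494) and the Nodal convertase Pcsk6 fell by 1.51 (adjusted p = 0.00029), both as in WT (0.92 and -1.43). Furin, the second convertase, rose by 1.18 (adjusted p = 0.0123), a call lost at an adjusted p of 0.05 without ESC replicate 2.

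In the Fgf and Erk response 4 of 12 tested genes were lower and 1 higher (5 and 1 without the library labelled replicate 4), against 3 lower and 2 higher in WT. The shares over all genes were 9.59% lower and 11.2% higher in Smad2/3 DKO, and 13.2% and 13% in WT. Dusp4, a phosphatase that removes the activating phosphates of Erk, read 9.58, 8.88 and 9.33 in the ESCs and 11.75, 11.31, 11.24 and 11.75 in the d2 EBs (log2 change 2.25, SE 0.39, adjusted p = 0.000979). Spry4, a feedback inhibitor of receptor tyrosine kinases, moved the other way, from 10.27, 10.62 and 11.19 to 9.20, 8.52, 9.41 and 9.17 (log2 change -1.62, SE 0.37, adjusted p = 0.00595). The Ets factor Etv5 fell by 0.85 (adjusted p = 0.00512) and the immediate early gene Fos by 1.30 (adjusted p = 0.0069), with 1 d2 array still detecting Fos, the library labelled replicate 4 at 7.23. Etv1, a relative of Etv5, did not change by the test, at 8.46, 8.33 and 8.37 and 7.94, 8.01, 8.01 and 7.93 (log2 change -0.41, SE 0.24, adjusted p = 0.249). WT Etv1 rose by 1.47, and the difference between the genotypes was -1.89, SE 0.32, adjusted p = 0.0249, not called without ESC replicate 2 (0.0802) or 4 (0.083) or WT d2 replicate 2 (0.0512). The other 2 Etv1 probes gave differences of -2.05 (adjusted p = 0.0187) and -2.12 (adjusted p = 0.0633).

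Wnt response genes rose. Of 7 tested genes 5 were higher and none lower, with and without the library labelled replicate 4, where 11.2% of all genes were higher. Of the listed genes 4 were detected on some Smad2/3 DKO ESC array and 7 on some Smad2/3 DKO d2 array, which limits calls of lower genes. The list's median change was 1.78 in Smad2/3 DKO and 1.27 in WT, where 4 were higher. Axin2, the feedback scaffold of the beta-catenin destruction complex, read 7.70, 8.57 and 7.21 in the ESCs and 11.54, 11.63, 10.50 and 11.25 in the d2 EBs and was 10.6-fold higher (log2 change 3.40, SE 0.47, adjusted p = 0.00015). Sp5, a zinc finger factor that is a direct Wnt target, was undetected in the ESCs (5.95, 5.66 and 5.80) and read 9.30, 8.32, 8 and 10.44 in the d2 EBs, at least 3.56-fold higher (adjusted p = 0.00684, and at least 2.56-fold, adjusted p = 0.0194, without the library labelled replicate 4, its highest array). With all 45 arrays in 1 fit Sp5 was not called (adjusted p = 0.0551). Nkd1, a Dishevelled-binding inhibitor of Wnt, was also undetected in the ESCs and was detected on 2 of 4 d2 arrays (adjusted p = 0.000414).

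The Sp5 promoter is printed because it was the 1 window searched that held a Wnt element. It is the 250 bases before the annotated start in RefSeq (GRCm38.p6, chr2:70474673-70474922, plus strand), with the Tcf/Lef element CTTTGAT in capitals.

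Sp5: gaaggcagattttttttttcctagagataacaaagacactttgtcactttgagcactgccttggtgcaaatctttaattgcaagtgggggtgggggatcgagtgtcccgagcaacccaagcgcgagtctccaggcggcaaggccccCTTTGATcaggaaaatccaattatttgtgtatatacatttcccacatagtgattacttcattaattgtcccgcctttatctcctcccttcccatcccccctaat

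CTTTGAT was searched on both strands. It occurred in 3.2% of 32851 RefSeq promoters of this length and in none of the other Wnt and Bmp genes searched (Axin2, Lef1, Nkd1, Id4, Msx1 and Nbl1). The match describes the letters of this window only.

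Primitive streak and mesoderm genes rose in a subset. Of 14 tested, 7 were higher (6 without the library labelled replicate 4) and none lower, and 6 were higher in WT. Of the listed genes 4 were detected on some Smad2/3 DKO ESC array and 19 on some Smad2/3 DKO d2 array. A gene at the detection floor in ESCs can hardly be called lower, so these counts depend in part on the probe filter. The median change was 1.31 in Smad2/3 DKO (0.82 without that library) and 1.44 in WT, and 11.2% of all genes were higher in Smad2/3 DKO. Cdx2, the caudal factor of the posterior embryo that also specifies trophectoderm, was undetected in the ESCs (6.43, 5.70 and 5.98) and read 11.22, 10.91, 9.06 and 10.67 in the d2 EBs, at least 9.73-fold higher (adjusted p = 1.45e-05). Wnt8a, a ligand of the early streak, went from 5.57, 5.78 and 5.66 to 10.79, 10.42, 8.09 and 10.36 and was at least 6.63-fold higher (adjusted p = 0.000337), with replicate 3 more than 2 log2 units below the other d2 arrays. In WT Wnt8a rose by 4.62 (difference -0.37, SE 0.88, adjusted p = 0.977). Rspo3, a secreted amplifier of Wnt signals, was at least 2.38-fold higher (adjusted p = 0.00023, and 0.0664 with all 45 arrays). Hoxb1, a Hox gene switched on early in the streak, was at least 1.66-fold higher (adjusted p = 0.00158), with 8.29, 9.68, 5.71 and 7.97 in the d2 EBs and replicate 3 undetected. Evx1, a homeobox gene of the proximal streak, rose from 8.06, 9.26 and 8.48 to 10.49, 10.46, 9.78 and 11 (log2 change 1.83, SE 0.48, adjusted p = 0.0139), a call lost without ESC replicate 2 (0.0675) or 4 (0.0536).

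Eomes and Gsc, streak genes that depend on Nodal in the embryo, were detected on no Smad2/3 DKO array. Eomes, a T-box factor of the anterior streak, read 4.97, 5.17 and 5.50 in the ESCs and 5.45, 5.44, 4.94 and 6.91 in the d2 EBs and was detected on none of the 7 arrays, whereas 3 of 4 WT d2 arrays detected it (6.58 to 9.01). Gsc, the homeobox gene of the organizer, was likewise undetected in Smad2/3 DKO (6.29, 5.46, 5.65 and 6.10 in the d2 EBs) and detected on 3 of 4 WT d2 arrays. The tests of these differences did not pass (-2.08, adjusted p = 0.395, and -2.21, adjusted p = 0.29). Fgf8, the streak Fgf that drives mesoderm migration, read 6.39, 5.43, 5.50 and 10.43 in the d2 EBs, detected only in the library labelled replicate 4. WT d2 EBs read 8.85 to 11.36. The difference from WT was -3.49 (adjusted p = 0.449) with that library and -4.65 (adjusted p = 0.0097) without it. T (brachyury) was not analysed here, having no probe assigned to it alone. Of the 5 tested genes of definitive endoderm and node 1 was lower and none higher (1 and 1 without the library labelled replicate 4), against 9.59% and 11.2% of all genes.

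Of 7 tested Bmp targets 3 were higher and none lower (4 without the library labelled replicate 4), against 1 in WT, with a median change of 1.02 (1.65 without it) and 0.33 in WT. By comparison 11.2% of all genes were higher in Smad2/3 DKO and 13% in WT. Among the listed genes 4 were detected on some Smad2/3 DKO ESC array and 7 on some Smad2/3 DKO d2 array, which limits calls of lower genes. Msx1, a homeobox gene induced by Bmp, was undetected in the ESCs (6.28, 6.67 and 5.88) and read 11.68, 11.92, 10.34 and 10.79 in the d2 EBs, at least 16-fold higher (adjusted p = 2.43e-06). WT Msx1 also rose, by 1.90, and the difference between the genotypes was 3.01, SE 0.56, adjusted p = 0.0411, and 3.14, adjusted p = 0.045, without the library labelled replicate 4. The difference was called in 4 of 15 fits that each left out 1 array, those without d2 replicate 3, the library labelled replicate 4, WT d2 replicate 3 or WT d2 replicate 4, and its adjusted p in the others ran from 0.0522 to 0.142. The second Msx1 probe rose less in Smad2/3 DKO, by 2.04 (adjusted p = 0.000863), so the bound of 16-fold holds for the brighter probe only. At that second probe the difference from WT was 1.5 (adjusted p = 0.343). Nbl1 (DAN), a secreted Bmp antagonist, was at least 1.6-fold higher (adjusted p = 0.00365).

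The Id genes encode dominant-negative partners of bHLH factors and answer to Bmp directly. Id4 read 6.05, 6.86 and 6.38 in the ESCs, all undetected, and 8.26, 8.81, 7.81 and 6.70 in the d2 EBs, at least 1.64-fold higher (adjusted p = 0.0134), with the library labelled replicate 4 the 1 undetected d2 array. It was not called without ESC replicate 2 (0.0629) or with the arrays of 1 genotype only (0.0599). The difference from WT, where Id4 was undetected on all 8 arrays, was 2.24 (adjusted p = 0.113) with the library and 2.64 (adjusted p = 0.0118) without it. Id2 read 9.30, 8.97 and 9.54 in the ESCs and 10.99, 11.18, 10.58 and 8.40 in the d2 EBs, and it too was called only without that library, in which it was lowest (1.02, adjusted p = 0.216, against 1.65, adjusted p = 0.00641). A second Id2 probe was called neither with that library (0.77, adjusted p = 0.267) nor without it (1.03, adjusted p = 0.145). Id1 was bright throughout and was not called (13.48, 13.36 and 13.48 and 13.86, 13.27, 13.27 and 12.86). The Id4 promoter is printed because it carries the GC-rich element GGCGCC bound by Smads, in capitals, in the 250 bases before its start (GRCm38.p6, chr13:48260866-48261115, plus strand).

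Id4: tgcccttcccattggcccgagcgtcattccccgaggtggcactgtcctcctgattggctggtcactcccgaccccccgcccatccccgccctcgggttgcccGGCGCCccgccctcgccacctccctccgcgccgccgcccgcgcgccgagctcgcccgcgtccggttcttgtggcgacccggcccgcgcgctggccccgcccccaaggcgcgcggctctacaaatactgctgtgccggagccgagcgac

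GGCGCC occurred in 9.59% of the 32851 promoters, also in that of Nbl1 and in some of the Lef1 promoters, and not in that of Msx1. The Smad box CAGAC, found in 42.2% of promoters, was absent from the Sp5 and Id4 windows and present in that of Axin2. No match says only that the letters are not in the window.

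**Figure D4:**
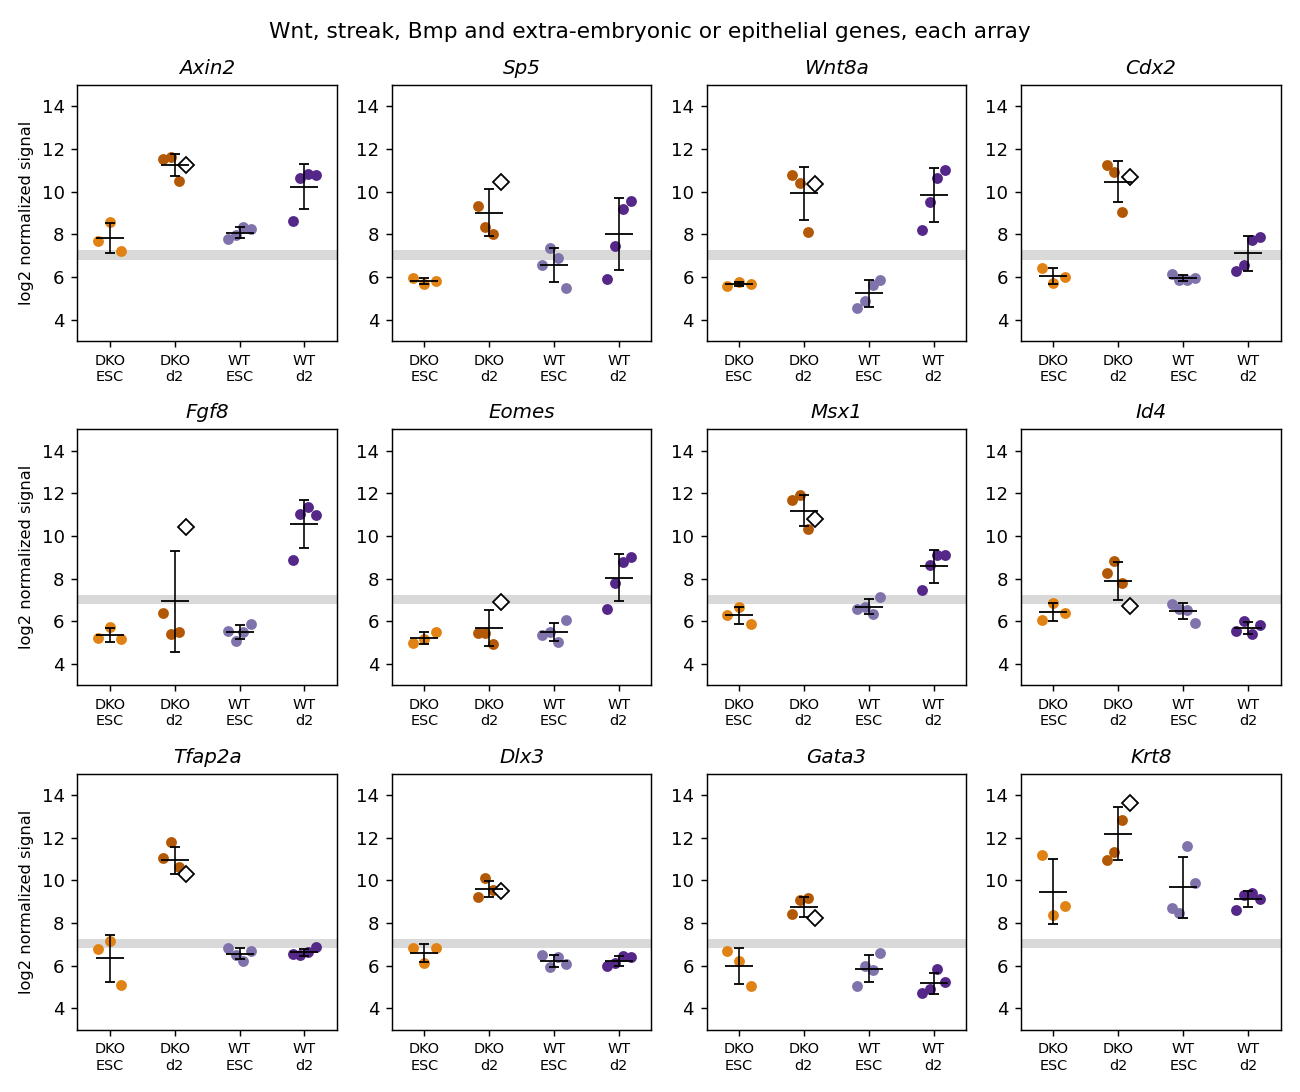
Log2 normalized signal of 12 Wnt, streak, Bmp and extra-embryonic or epithelial genes, drawn as in the plot of naive genes. Axin2, Sp5, Wnt8a, Cdx2, Msx1, Tfap2a, Dlx3 and Gata3 are higher on every Smad2/3 DKO d2 array than on any Smad2/3 DKO ESC array, Fgf8 is high in the library labelled replicate 4 alone (10.43), and Krt8 overlaps between the groups.

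Of 23 tested trophectoderm and extra-embryonic ectoderm genes 7 were higher and 2 lower, with and without the library labelled replicate 4, whereas in WT 1 was higher and 6 were lower, and the list's median change was 1.08 in Smad2/3 DKO and -0.33 in WT. The differences of 4 of these genes from WT were called higher, or 3 without that library, against 0.203% of all genes. Over all genes 11.2% were higher and 9.59% lower in Smad2/3 DKO, and 13% and 13.2% in WT. Genes such as Tfap2a and Dlx3 passed the probe filter through the d2 Smad2/3 DKO arrays alone, so they could hardly be called lower. Of the listed genes 17 were detected on some Smad2/3 DKO ESC array and 23 on some d2 array, against 14 and 11 in WT. The counts and the called differences therefore depend in part on that filter. Tfap2a (AP-2alpha), a factor of trophectoderm and surface ectoderm, read 6.77, 7.15 and 5.10 in the ESCs, all undetected, and 11.05, 11.78, 10.64 and 10.30 in the d2 EBs. It was at least 13.5-fold higher (adjusted p = 3.56e-06), was undetected on all 8 WT arrays, and differed from WT by 4.53, SE 0.55, adjusted p = 0.00282, on values below detection in the other 3 groups. Dlx3, a distal-less homeobox gene of placenta and epidermis, went from 6.85, 6.11 and 6.85 to 9.19, 10.11, 9.55 and 9.50, at least 5.3-fold higher (adjusted p = 1.88e-06), and differed from WT by 2.98, SE 0.33, adjusted p = 0.00137. For both genes the 4 d2 arrays lay more than 2 log2 units above the highest ESC array, and WT arrays detected neither.

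The GATA factors of trophectoderm rose with them. Gata3 read 6.67, 6.22 and 5.05 in the ESCs, undetected, and 8.40, 9.09, 9.16 and 8.25 in the d2 EBs, at least 2.91-fold higher (adjusted p = 0.000287), with a difference from WT of 3.43, SE 0.56, adjusted p = 0.0187, not called without ESC replicate 4 (0.0603). Gata2 rose from 8.35, 7.10 and 7.47 to 9.70, 10.32, 10.72 and 9.63 (log2 change 2.45, SE 0.53, adjusted p = 0.00417), and Cdx2, described above, also belongs here. Fgfr2, the Fgf receptor of extra-embryonic ectoderm, rose from 8.33, 9.04 and 9.40 to 10.29, 10.50, 11 and 9.44 (log2 change 1.38, SE 0.37, adjusted p = 0.0154). Its call was lost without ESC replicate 2 (0.0834) and with the clone as a block (1.15, adjusted p = 0.075). Sct (secretin), a peptide hormone, rose by 1.78 (adjusted p = 0.0226), with overlapping groups and a call lost without ESC replicate 3 (0.0931), ESC replicate 4 (0.128) or d2 replicate 3 (0.0637). Tfap2c (AP-2gamma) was bright in both groups (11.43, 12.64 and 11.89 and 12.20, 12.87, 12.84 and 12.26) and was not called (log2 change 0.56, SE 0.52, adjusted p = 0.504), and in WT it fell by 2.77 (difference 3.33, adjusted p = 0.0702, with 3.78, adjusted p = 0.0445, and 3.13, adjusted p = 0.0553, at the other 2 probes).

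Not all genes of the list moved this way. Bmp4, the ligand that extra-embryonic ectoderm supplies to the epiblast, fell from 12.14, 12.39 and 12.99 to 8.98, 10.14, 10.23 and 9.81 (log2 change -2.72, SE 0.41, adjusted p = 0.000342), as in WT (-3.06). Tead4, the factor that initiates trophectoderm, fell by 1.66 (adjusted p = 0.0164), a call lost without ESC replicate 2 (0.0553) or 4 (0.0651). Rhox6 and Rhox9, reproductive homeobox genes on the X chromosome, were highest in replicate 3 and the library labelled replicate 4, at 8.70, 9.04, 11.86 and 10.98 and 9.82, 9.97, 12.41 and 11.77 in the d2 EBs, and were not called (adjusted p = 0.113 and 0.0548). Their WT falls of 2.64 and 1.94 differed from the Smad2/3 DKO changes by 4.03 (adjusted p = 0.0507) and 3.40 (adjusted p = 0.0567). Over the whole list the summed linear signal ran from 18696 to 19866 in Smad2/3 DKO ESCs, from 21822 to 45534 in Smad2/3 DKO d2 EBs, from 14143 to 19123 in WT ESCs and from 5243 to 9117 in WT d2 EBs, and 24 of the 26 listed genes were detected on some array. Whether this reflects a separate group of cells within the EBs was not tested.

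Of 13 tested surface ectoderm and simple epithelium genes 5 were higher and 1 lower (4 and none without the library labelled replicate 4), and in WT 2 were higher and 4 lower. The shares over all genes were 11.2% higher and 9.59% lower in Smad2/3 DKO, and 13% and 13.2% in WT. Krt8, the type II keratin of simple epithelia, read 11.21, 8.39 and 8.78 in the ESCs and 10.96, 11.34, 12.80 and 13.60 in the d2 EBs (log2 change 2.72, SE 0.79, adjusted p = 0.0247). ESC replicate 2 (clone KT15.2G9) lay inside the d2 range, and the call was lost without the library labelled replicate 4 (2.24, adjusted p = 0.0673), without ESC replicate 3 (0.117), ESC replicate 4 (0.11) or d2 replicate 3 (0.0602), and with the clone as a block (2.51, adjusted p = 0.054). Krt18, its type I partner, showed the same order of arrays, with 10.21, 7.19 and 7.61 and 9.86, 10.35, 11.39 and 12.58 (log2 change 2.71, SE 0.89, adjusted p = 0.0444), and its call was lost without the library labelled replicate 4 (0.114), without ESC replicate 3 (0.178) or 4 (0.164), d2 replicate 3 (0.086), WT ESC replicate 4 or any of the 4 WT d2 arrays (0.0523 to 0.0566), and with the clone as a block (2.59, adjusted p = 0.0668). The claudin Cldn6 rose from 11.72, 12.28 and 11.76 to 13.20, 13.40, 13.25 and 13.17 (log2 change 1.34, SE 0.35, adjusted p = 0.0142), lost without ESC replicate 2 (0.0565) or 4 (0.0611), and Esrp1, an epithelial splicing regulator, by 1.15 (adjusted p = 0.00398, and 0.0619 with all 45 arrays), both also higher in WT (1.24 and 0.83). Elf3, an Ets factor of epithelia outside the lists, rose from 9.51, 9.74 and 9.55 to 10.65, 10.97, 11.02 and 10.78 (log2 change 1.26, SE 0.21, adjusted p = 0.000782) while WT fell by 0.90, a difference of 2.16, SE 0.29, adjusted p = 0.00544. A second Elf3 probe gave a difference of 1.92 (adjusted p = 0.0467) and another 0.57 (adjusted p = 0.651). At neither probe was the rise in Smad2/3 DKO called (0.79, adjusted p = 0.0579, and 0.33, adjusted p = 0.233).

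**Figure D5:**
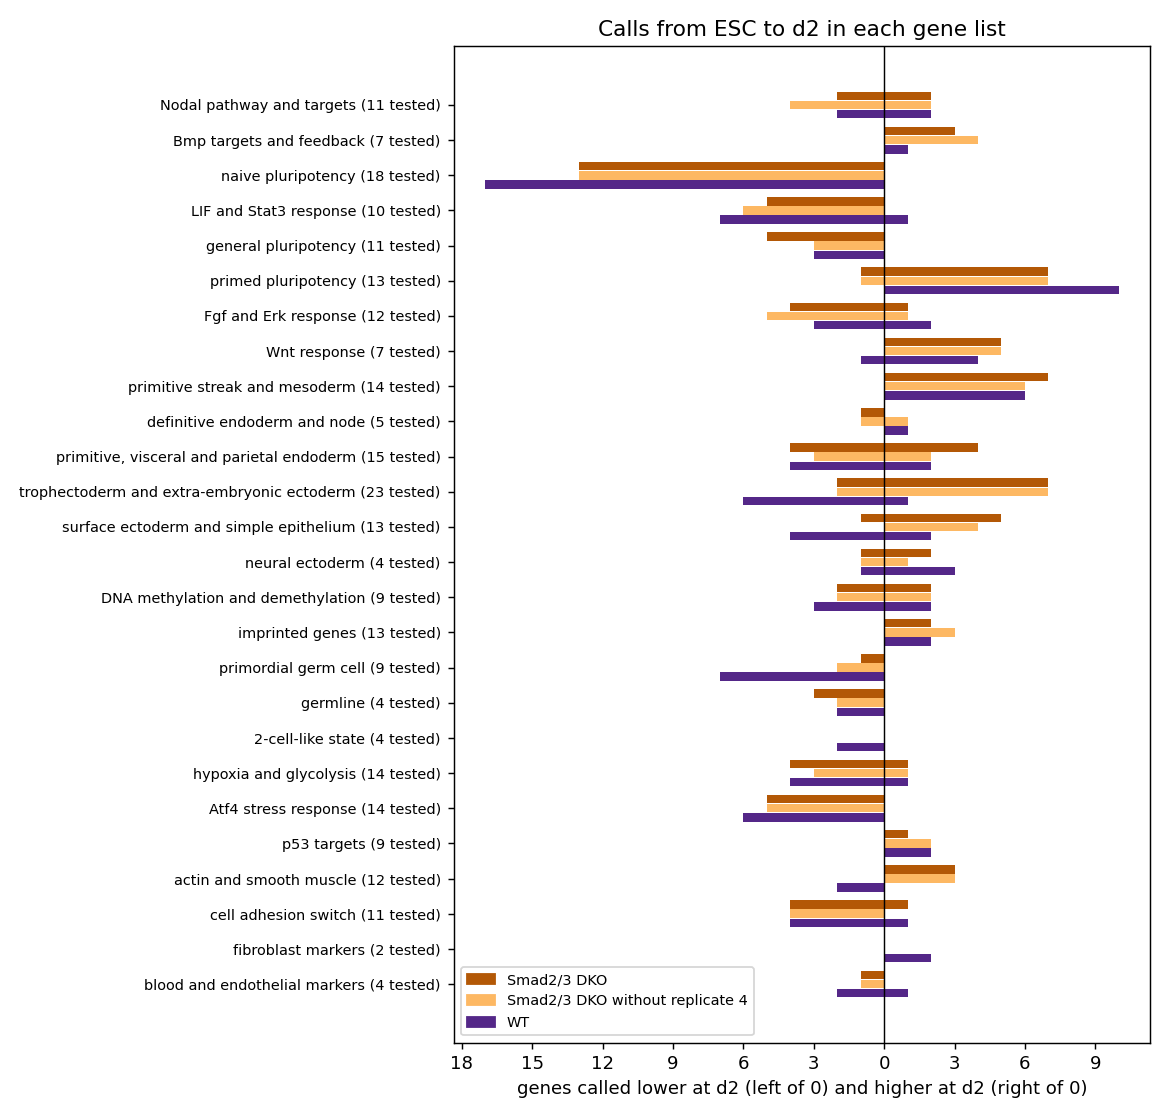
Number of genes called lower (left of 0) and higher (right of 0) at d2 in each of 26 gene lists, for Smad2/3 DKO, for Smad2/3 DKO without the library labelled replicate 4, and for WT. Naive genes are called lower in both genotypes (13 and 17 of 18). Of 23 trophectoderm genes 7 are called higher and 2 lower in Smad2/3 DKO, and 1 higher and 6 lower in WT. Differences from WT were called for 4 of the 23, or 3 without that library. Over all genes 11.2% were higher and 9.59% lower in Smad2/3 DKO, and 13% and 13.2% in WT.

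Of 15 tested genes of primitive, visceral and parietal endoderm 4 were higher and 4 lower (2 and 3 without the library labelled replicate 4). For this list and the neural one below, the shares over all genes were 11.2% higher and 9.59% lower. Sox7, a Sox factor of primitive endoderm, read 8.94, 8.83 and 9.62 in the Smad2/3 DKO ESCs and 5.23, 6.53, 5.43 and 6.81 in the d2 EBs, where no array detected it, at least 4.52-fold lower (adjusted p = 0.000489). The laminin chains of the basement membrane fell too, Lama1 from 10.13, 10.78 and 12.18 to 7.64, 8.55, 7.93 and 8.45 (log2 change -2.89, SE 0.38, adjusted p = 0.000124) and Lamc1 by 1.47 (adjusted p = 0.000598). Fst (follistatin), the secreted Activin antagonist, rose from 8.04, 7.96 and 8.19 to 10.48, 9.59, 8.72 and 10.95 (log2 change 1.87, SE 0.41, adjusted p = 0.00453, and 0.129 with all 45 arrays), less than in WT by point value (4.02), and the difference did not pass (-2.15, adjusted p = 0.188). Of the 4 tested neural genes 2 were higher and 1 lower (1 and 1 without that library). Sox11, a SoxC factor of neural progenitors, rose from 8.84, 8.69 and 8.72 to 11.35, 11.39, 11.23 and 11.07 (log2 change 2.51, SE 0.21, adjusted p = 2.08e-06).

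Among the DNA methylation genes 2 of 9 were higher and 2 lower, where 11.2% of all genes were higher and 9.59% lower. Gadd45g, a growth arrest gene of the Gadd45 family, rose from 9.48, 8.27 and 8.02 to 11.43, 11.10, 11.40 and 9.97 (log2 change 2.38, SE 0.50, adjusted p = 0.00352), with a second probe at 1.72 (adjusted p = 0.0502). Its relative Gadd45a fell by 1.25 (adjusted p = 0.00125), and the dioxygenase Tet1 by 1.12 (adjusted p = 0.0153), a call lost without ESC replicate 2 (0.054) or 3 (0.0507). Of 13 imprinted genes 2 were higher (3 without the library labelled replicate 4), a share near the 11.2% of all genes. Peg3, a paternally expressed zinc finger gene, rose from 10.33, 10.20 and 9.71 to 11.92, 12.77, 12.54 and 12.52 (log2 change 2.35, SE 0.25, adjusted p = 2.35e-05), and Ndn (necdin), also paternally expressed, rose by 1.89 (adjusted p = 0.000863). The Peg3 change was larger than in WT by 1.76, SE 0.35, adjusted p = 0.0498, but not called without the library labelled replicate 4 (adjusted p = 0.0808). It was called in 2 of 15 fits that each left out 1 array, those without d2 replicate 1 or WT d2 replicate 3 (adjusted p up to 0.179 in the others).

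In the Atf4 response, the amino acid stress programme, 5 of 14 tested genes were lower and none higher, and 6 were lower in WT, against 9.59% and 13.2% of all genes. Shmt2, the mitochondrial serine hydroxymethyltransferase, fell from 10.11, 10.14 and 10.27 to 8.19, 8.76, 8.42 and 8.73 (log2 change -1.64, SE 0.17, adjusted p = 1.26e-05), and Cth, which makes cysteine from cystathionine, from 9.10, 8.51 and 8.68 to 6.03, 6.14, 6.31 and 7.03 (log2 change -2.38, SE 0.31, adjusted p = 0.000112). The pseudokinase Trib3 and the factor Atf5 fell by 1.64 (adjusted p = 0.00519, and 0.0595 with all 45 arrays) and 1.53 (adjusted p = 0.00542). Of the 14 tested hypoxia and glycolysis genes 4 were lower and 1 higher (3 and 1 without the library labelled replicate 4), against 9.59% and 11.2% of all genes. Pfkp, the platelet phosphofructokinase, fell from 11.43, 12.14 and 12.12 to 9.18, 9.16, 9.22 and 9.61 (log2 change -2.60, SE 0.26, adjusted p = 9.97e-06), and Vegfa, the angiogenic ligand, to no detection, at least 1.69-fold lower (adjusted p = 0.00789). Of 4 tested germline genes 3 fell (2 without the library labelled replicate 4), among them the meiotic coactivator Taf7l (-2.51, adjusted p = 0.00136) and the RNA-binding protein Dazl (at least 1.4-fold lower, adjusted p = 0.00074). Of 9 primordial germ cell genes 1 was lower in Smad2/3 DKO (2 without that library) and 7 were in WT. The shares of all genes that were lower were 9.59% in Smad2/3 DKO and 13.2% in WT. No difference from WT was called in either list. Dppa3, Prdm14 and Dppa5a also belong to the naive list, and Tfap2c to the trophectoderm and surface ectoderm lists.

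Of 12 tested actin and smooth muscle genes 3 were higher and none lower, against none and 2 in WT. No difference from WT was called in this list. For this list and those below, the shares over all genes were 11.2% higher and 9.59% lower in Smad2/3 DKO, and 13% and 13.2% in WT. Tpm1 (tropomyosin) rose from 11.38, 11.09 and 11.07 to 12.44, 12.96, 13.11 and 13.57 (log2 change 1.84, SE 0.34, adjusted p = 0.00141). In the adhesion list 4 of 11 were lower and 1 higher (4 and none without the library labelled replicate 4). Zeb1, a repressor of epithelial genes, fell from 8.99, 8.13 and 7.97 to 6.05, 5.38, 7.02 and 6.45 (log2 change -2.14, SE 0.43, adjusted p = 0.00273), and the fibronectin receptor subunit Itga5 by 1.02 (adjusted p = 0.0044). Of 9 tested p53 targets 1 was higher (2 without that library), a share near that of all genes. Of the 4 tested genes of the 2-cell-like state none was called in Smad2/3 DKO and 2 were lower in WT, but no difference between the genotypes was called. Markers of other cell types stayed low: of 12 fibroblast markers 1 was detected on any Smad2/3 DKO ESC array and 2 on any d2 array, with summed linear signals of 656 to 1004 and 782 to 986, and neither of the 2 tested was called. Of 12 blood and endothelial markers 3 and 5 were detected, with summed signals of 1409 to 1641 and 800 to 1799, and 1 of 4 tested was lower (Pecam1, also in the naive list).

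The difference between the Smad2/3 DKO and the WT change was tested for every gene. Every Smad2/3 DKO clone came from KT15 and the WT arrays from other lines (CCE, CCB, CCH and CCF), and more EBs were collected for Smad2/3 DKO. Genotype, line of origin and number of EBs therefore cannot be told apart in any difference from WT. By any probe 20 genes had a higher and 14 a lower change in Smad2/3 DKO (17 and 15 without the library labelled replicate 4), and by the brightest probe these were 18 (0.203%) and 11 (0.124%). With the clone as a block the counts were 13 and 4, and over 15 fits that each left out 1 array they ran from 6 to 31 higher and from 4 to 15 lower. The count of higher genes moved by more than 1.5 times without ESC Smad2/3 DKO replicate 2 (8) or 4 (6), d2 Smad2/3 DKO replicate 1 (31) or 2 (11), WT ESC replicate 3 (11) or 4 (9), or WT d2 replicate 1 (9) or 2 (9). That of lower genes did so without ESC Smad2/3 DKO replicate 2 (6) or 4 (4), d2 Smad2/3 DKO replicate 3 (8), WT ESC replicate 2 (8), or WT d2 replicate 1 (9) or 2 (6). Of the 29 genes by brightest probe, 12 were members of a list and 21 were also called without the library labelled replicate 4. The 10 lowest p-values belonged to Fgf5, Dlx3, Tfap2a, Hs3st3b1, Elf3, Nrcam, Fgf15, Stard8, Urgcp and Gata3. The differences of Fgf5, Dlx3, Tfap2a, Hs3st3b1, Elf3, Nrcam and Fgf15 were called in all 15 of those fits. With all 45 arrays in 1 fit, in which the other groups share the estimate of the spread, the differences of Dlx3, Hs3st3b1, Fgf15 and Gata3 were still called. Those of Fgf5 (adjusted p = 0.139), Tfap2a (0.102), Elf3 (0.148), Nrcam (0.127), Stard8 (0.148), Urgcp (0.148), Etv1 (0.0792), Tbx3 (0.173), Klf2 (0.577), Peg3 (0.771), Cdx2 (0.81) and Msx1 (0.839) were not.

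Hs3st3b1, a heparan sulfate sulfotransferase, was detected on all 7 Smad2/3 DKO arrays. It read 8.21, 7.76 and 8.88 in the Smad2/3 DKO ESCs and 8.97, 11.18, 10.22 and 9.78 in the d2 EBs (log2 change 1.75, SE 0.47, adjusted p = 0.017), while in WT it went from 4 detected arrays to none, at least 5.47-fold lower. The difference was 5.09, SE 0.65, adjusted p = 0.00378, with a size that rests in part on signal below detection in WT d2 EBs. The rise in Smad2/3 DKO itself was lost without ESC replicate 2 (0.0534) or 3 (0.0819) and with all 45 arrays (0.0682). Stard8 read 8.92, 8.42 and 8.44 and 7.47, 8.72, 8.73 and 8.92 in Smad2/3 DKO and fell by 2.91 in WT (difference 2.77, SE 0.44, adjusted p = 0.0174), and Urgcp rose from 7.90, 7.77 and 7.74 to 8.31, 8.45, 8.83 and 8.74 and fell by 0.61 in WT (difference 1.39, SE 0.23, adjusted p = 0.0187). Both differences were lost without ESC Smad2/3 DKO replicate 4 (0.0629 and 0.0751).

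With the clone as a block the differences of Elf3 (adjusted p = 0.0794), Fgf15 (0.0773), Stard8 (0.0828), Urgcp (0.0881), Klf2 (0.115), Tbx3 (0.0828), Etv1 (0.0794) and Peg3 (0.13) were not called, and those of Fgf5 (0.00159), Dlx3 (0.00791), Tfap2a (0.00159), Hs3st3b1 (0.0128), Nrcam (0.0181), Gata3 (0.0253), Msx1 (0.0255) and Cdx2 (0.0261) were. Cdx2, with a difference of 3.27, SE 0.62, adjusted p = 0.0411, was called in 3 of the 15 fits that left out 1 array, those without d2 replicate 3, WT d2 replicate 3 or WT d2 replicate 4. Without the library labelled replicate 4 its adjusted p was 0.0705, and over the other fits it reached 0.139.

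For the 3 clones measured at both times, the change was taken within each clone over the genes called without the library labelled replicate 4. Among 939 genes called higher the median change was 1.31 in KT15.2G9, 1.16 in KT15.1F6 and 1.07 in KT15.2D5, and 99.9%, 99.8% and 93.6% of the genes rose. Among 798 genes called lower the medians were -1.09, -1.27 and -1.14, with 99.4%, 100% and 95.2% falling. KT15.2G9 and KT15.1F6 entered the choice of these genes and KT15.2D5 did so with its ESC array alone, so the share for KT15.2D5 is the one that uses a d2 array outside that choice. That d2 array is the library labelled replicate 4, whose Smad3 signal goes against its label.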

How the data were processed

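The authors extracted bead signals of Illumina MouseWG-6 v2.0 arrays in GenomeStudio (2009.2 in the submitters' notes), and deposited them as a table of average intensity per probe with a detection p-value against the negative controls. They also deposited a table of log2 values, background-corrected and quantile-normalized over the 45 arrays, which was used here. Quantile normalization gives every array the same distribution, so a shift of all transcripts together is not visible. The log2 values of 15 arrays (4 WT ESC, 4 WT d2, 3 Smad2/3 DKO ESC, 4 Smad2/3 DKO d2) were fitted with limma 3.58.1 (R 4.3.3, lmFit and eBayes) as 4 group means. Every p-value is limma's, 2-sided, with Benjamini-Hochberg adjustment over the 15222 of 45281 probes detected (p under 0.01) on at least 3 arrays. Because clones of 1 genotype share a parental line, p-values measure the spread between these cultures. Probes with 1 gene symbol (34885) were named, those with several (18) or none (10378) were not. The number of arrays limits the precision.

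The members and the gene lists were chosen with earlier results of these data known. Of 378 listed genes 243 were tested, 135 having no probe of their own or too few detected arrays. Named genes were list members, mainly those with the lowest p, the 10 largest rises and falls called with and without the library labelled replicate 4 whose groups did not overlap, and the 10 differences from WT with the lowest p. Genes outside those choices were named after their values were seen. Clone names in the titles pair ESC and EB arrays of 1 cell line. The correlation of their deviations from group means was 0.246 (CCE), 0.223 (CCB), -0.128 (CCH), -0.0484 (CCF), 0.00286 (KT15.2G9), 0.234 (KT15.1F6) and -0.0187 (KT15.2D5). Promoters came from RefSeq (GRCm38.p6). Scripts used Python 3.11.15, pandas 2.3.3 and numpy 2.4.6, and the fits were tested on simulated data. Alternatives covered background correction, scaling, probe filter, arrays fitted, array weights, clone as a block, the study's threshold and each array left out.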

Additional observations from a re-analysis of the deposited data

Results flagged for a closer look

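In groups of 4 arrays some values lay far from the other 3 by Dixon's test, which chance alone flags in about 1 of 20 groups. Among the Smad2/3 DKO d2 EBs, the library labelled replicate 4 stood apart for Smad3 (9.42), Lefty1 (8.44), Fos (7.23) and Pfkp (9.61), in each case above the other arrays. Replicate 3 was low for Wnt8a (8.09) and Vrtn (8.79), and replicate 1 for Has2 (9.78) and Stard8 (7.47). Among the WT ESCs, replicate 1 stood apart for Zfp42 (12.89), Fbxo15 (12.57), Fst (7.35) and Emp1 (12.30), replicate 2 for Klf5 (13.52) and replicate 3 for Lef1 (4.73). Among the WT d2 EBs, replicate 1 did so for Etv1 (10.41), Axin2 (8.64), Fgf8 (8.85) and Vrtn (10.35), replicate 3 for Lifr (6.61) and replicate 4 for Tbx3 (6.92).

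The change from ESC to d2 differed between the genotypes by limma's test of the difference (the Smad2/3 DKO change minus the WT change, on the log2 scale) for 16 of the named genes. The change was higher in Smad2/3 DKO for Hs3st3b1 (5.09), Tfap2a (4.53), Gata3 (3.43), Cdx2 (3.27), Msx1 (3.01), Dlx3 (2.98), Stard8 (2.77), Tbx3 (2.65), Elf3 (2.16), Klf2 (2.04), Peg3 (1.76) and Urgcp (1.39). It was lower for Fgf5 (-4.37), Fgf15 (-2.88), Nrcam (-2.81) and Etv1 (-1.89).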

How the results depend on the processing

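The alternatives that pair each change of processing with leaving out the library labelled replicate 4 were chosen after seeing the data. The counts of genes higher (1084) and lower (995) in Smad2/3 DKO d2 EBs stayed within 1.5 times of these values, except with the clone as a replicate block without the library labelled replicate 4 (624 and 534) and without ESC replicate 4. With 1 array left out at a time they ran from 683 to 1161 and from 651 to 1107. The counts of differences from WT (20 higher, 14 lower) moved more. They were 11 and 3 with all 45 arrays (8 and 2 also without that library), 6 and 3 with no probe filter, 13 and 4 with the replicate block by clone (3 and 2 also without that library), and 456 and 299 at the study's threshold of unadjusted p and fold. Lower differences numbered 22 with array weights, 23 with median scaling (29 without that library) and 24 with neqc (31 without that library). Left-out arrays gave 6 to 31 higher and 4 to 15 lower. The causes were not tested, except that the left-out fits hold fewer arrays.

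Of 104 called changes of named genes, 85 were called in all 15 fits that each left out 1 array, and of 16 called differences 7 were. With all 45 arrays in 1 fit, 16 of these changes were not called, those of Esrp1, Evx1, Fgf5, Fgfr2, Fst, Hs3st3b1, Mybl2, Nr5a2, Pim2, Rspo3, Sct, Sox2, Sp5, Tead4, Trib3 and Utf1 (adjusted p = 0.0528 to 0.185), and neither were 12 of the differences, which the report names. The arrays of 1 genotype ended the calls of Id4, Krt8 and Krt18 (0.0506 to 0.0599), median scaling that of Dnmt3b (0.217) and neqc that of Krt18 (0.0507). No probe filter ended those of Krt18 (0.0736) and Pou5f1 (0.11) and the differences of Cdx2, Etv1, Klf2, Msx1, Peg3, Tbx3 and Urgcp (0.0564 to 0.103). No background correction ended the difference of Tbx3 (0.054) and array weights that of Peg3 (0.0661). The replicate block by clone, which gives d2 replicate 3 no weight because its clone has no ESC array, ended the calls given in the report and changed no other call of a named gene. Values that changed sign belonged to genes not called in Smad2/3 DKO. With the block and without that library these were Dppa3 (-0.31), Gbx2 (0.17), Dppa5a (0.0241), Gsc (0.0925), Id1 (0.14), Rhox6 (-0.0474) and Smad3 (-0.25). With median scaling and without that library they were Nrcam (-0.0135), Eomes (-0.14) and Smad3 (-0.16). Id1 was 0.0269 without that library, also with all 45 arrays or arrays of 1 genotype, 0.0251 with no background correction and 0.024 with neqc. With 1 array left out at a time, Id1 ran from -0.31 to 0.0269, Gsc from -0.33 to 0.0928 and Stard8 from -0.29 to 0.20. A slide block was not run, since the headers name no slide. Signal near background limits every gene given as undetected or by a bound.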
